A study of Mus musculus with 18 samples.

Results

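The CCAAT/enhancer binding protein (C/EBP) family was described by its members Cebpa, Cebpb, Cebpd, Cebpe and Cebpg, each represented by the probe set that carries its symbol alone in the platform annotation. These are 5 of the 19938 genes measured, and each had 1 such probe set, so all 5 entered every test. Transcripts were measured on 18 arrays of lung RNA labelled as terminal bronchiolar epithelial cells, from Cebpa d/d and control mice of a mixed FVB/N and C57BL/6 background. There were 6 groups of 3 arrays. Cebpa d/d mice were sampled at 0, 3 and 72 hr after naphthalene, and control mice at the same 3 times. How the Cebpa d/d allele was driven, the age and sex of the mice, the number of mice behind an array and the way the cells were collected are not given in the sources used here. Nothing states that replicates came from separate animals, so the p-values measure the spread between these arrays, which may in part be technical. Levels are log2 values made with RMA, a procedure that corrects background, normalizes arrays and summarises the probes of a gene. A level belongs to 1 probe set, so it was compared between groups for a gene and not between genes. The only levels set against each other are those of the sex-linked transcripts Xist and Eif2s3y, to sort the arrays.

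C/EBP proteins are basic leucine zipper transcription factors. They bind DNA as dimers, with each other or with related factors of the ATF and AP-1 families. C/EBPα, the product of Cebpa, is known in lung for the maturation of airway and alveolar epithelium and for surfactant lipid genes. C/EBPβ and C/EBPδ, from Cebpb and Cebpd, are induced in many tissues by interleukin-6 and other inflammatory signals. C/EBPε, from Cebpe, acts in the late maturation of granulocytes. C/EBPγ, from Cebpg, lacks the usual activation domain and can pair with other C/EBP proteins and with ATF4. Naphthalene injures club cells, the secretory cells of small airways, after the cytochrome P450 Cyp2f2 turns it into a reactive product.

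Promoter windows are shown for the members that differed between genotypes, Cebpa and Cebpg, and for Cebpb, whose level differed between 3 and 72 hr in both genotypes. The RefSeq promoter table (build GRCm38.p6) was matched by symbol and gave these 3 members. Cebpd and Cebpe had no entry. Each window holds 250 bases before the start of the gene and 10 bases after it, 5′ to 3′ on the strand of the gene. The windows lie at chr7:35119043-35119302 on the plus strand for Cebpa, chr2:167688665-167688924 on the plus strand for Cebpb and chr7:35056557-35056816 on the minus strand for Cebpg. Capitals mark the single motif match found.
Cebpa: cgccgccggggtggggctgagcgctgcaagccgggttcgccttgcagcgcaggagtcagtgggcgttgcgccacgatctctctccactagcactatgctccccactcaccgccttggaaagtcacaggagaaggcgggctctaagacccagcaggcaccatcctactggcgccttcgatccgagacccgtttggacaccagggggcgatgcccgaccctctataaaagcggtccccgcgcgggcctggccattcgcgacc
Cebpb: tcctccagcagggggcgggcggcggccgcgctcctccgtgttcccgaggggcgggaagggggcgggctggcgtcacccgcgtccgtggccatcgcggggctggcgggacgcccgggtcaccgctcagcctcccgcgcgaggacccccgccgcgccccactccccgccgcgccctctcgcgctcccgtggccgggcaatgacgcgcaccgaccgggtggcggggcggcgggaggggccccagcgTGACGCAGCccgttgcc
Cebpg: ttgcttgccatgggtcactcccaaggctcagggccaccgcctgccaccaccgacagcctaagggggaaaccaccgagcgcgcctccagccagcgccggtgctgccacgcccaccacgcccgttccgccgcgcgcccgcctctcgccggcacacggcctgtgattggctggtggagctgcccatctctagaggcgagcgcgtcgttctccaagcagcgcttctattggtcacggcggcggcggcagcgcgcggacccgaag

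All 3 windows were rich in G and C. Over the 250 bases before the start, G and C made up 66.4% in Cebpa, 81.6% in Cebpb and 70.8% in Cebpg, against a median of 52.4% over 32841 promoter windows. Both strands of the 300-base windows, 50 bases after the start included, were searched for 6 motifs. The match in Cebpb was TGACGCAGC, from base -7 to base 2 around the start, and has the letters TGACNNNGC of the antioxidant response element, which 12.4% of all windows hold. The C/EBP letters TTGCNNAA had 0 matches in the 3 windows and a match in 10.8% of all windows. The AP-1 letters TGANTCA (7.81% of all windows), the cyclic AMP response element TGACGTCA (1.79%), the composite C/EBP-ATF letters TGATGNAA (3.97%) and the STAT letters TTCNNNGAA (8.3%) also had 0 matches. The TGACNNNGC and TGACGTCA letters can overlap, and no pair of matches did here. A match is a run of letters and not a site known to be bound, and 0 matches says only that the letters are missing from these windows.

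Some facts of the whole set of arrays bear on what follows. The mean of 8 club cell markers lay between 11.40 and 12.38 on each array. The mean of 8 alveolar type 2 markers lay between 9.85 and 10.75 and that of 6 smooth muscle markers between 9.46 and 10.12. Since levels of different probe sets cannot be set against each other, these means do not say which cell type gave most of the RNA, and the labelled cell type was not settled by them. At 0 hr the mean of 10 cardiac muscle markers lay between 10.09 and 11 in Cebpa d/d arrays and between 7.67 and 9.16 in control arrays, and 7 of the 10 passed as higher (6 without control 0 hr replicate 1). The share of all genes that passed there in either direction was 0.336% (0.767% without that array). In every 72 hr array, of either genotype, the X-inactivation transcript Xist stood above the Y-linked Eif2s3y, as it did in 1 of 3 arrays in each of the other 4 groups. In such bulk RNA, fewer cells of a type and less RNA per cell cannot be told apart. A gene is said to have passed, or to be higher or lower, at an adjusted p under 0.05 in limma, with Benjamini-Hochberg adjustment over all 19938 genes, and differences are in log2 units, each given ± its standard error (SE). Counts at an unadjusted p under 0.05 stand without the share of all genes, which was not worked out at that p.

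Cebpa, the targeted gene, was lower in Cebpa d/d than in control, and 1 control array lay with the Cebpa d/d arrays. At 0 hr the level of Cebpa (chromosome 7, probe set 10552140) was 8.27, 8.11 and 7.83 in Cebpa d/d arrays, against 7.89, 10.07 and 10.17 in control arrays. At 3 hr it was 8.29, 8.07 and 8.37 in Cebpa d/d, against 10.52, 10.30 and 10.32 in control. At 72 hr it was 9.07, 8.55 and 7.90 in Cebpa d/d, against 9.69, 9.80 and 9.87 in control. The groups did not overlap at 3 and at 72 hr and overlapped at 0 hr through the array labelled control 0 hr replicate 1, whose 7.89 fell among the Cebpa d/d values. Among the Cebpa d/d arrays, replicate 1 at 72 hr was the highest, at 9.07. These 2 are called the doubted arrays, and genotype calls are also given without them. Both were picked by their Cebpa level, so leaving them out lowers the spread of Cebpa through that choice. For Cebpa, the fits without them describe the remaining arrays, and their p-values are not an independent test. Groups that did not overlap at a single time were common, in 11.4% (0 hr), 9.79% (3 hr) and 15.1% (72 hr) of all genes.

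**Figure D1:**
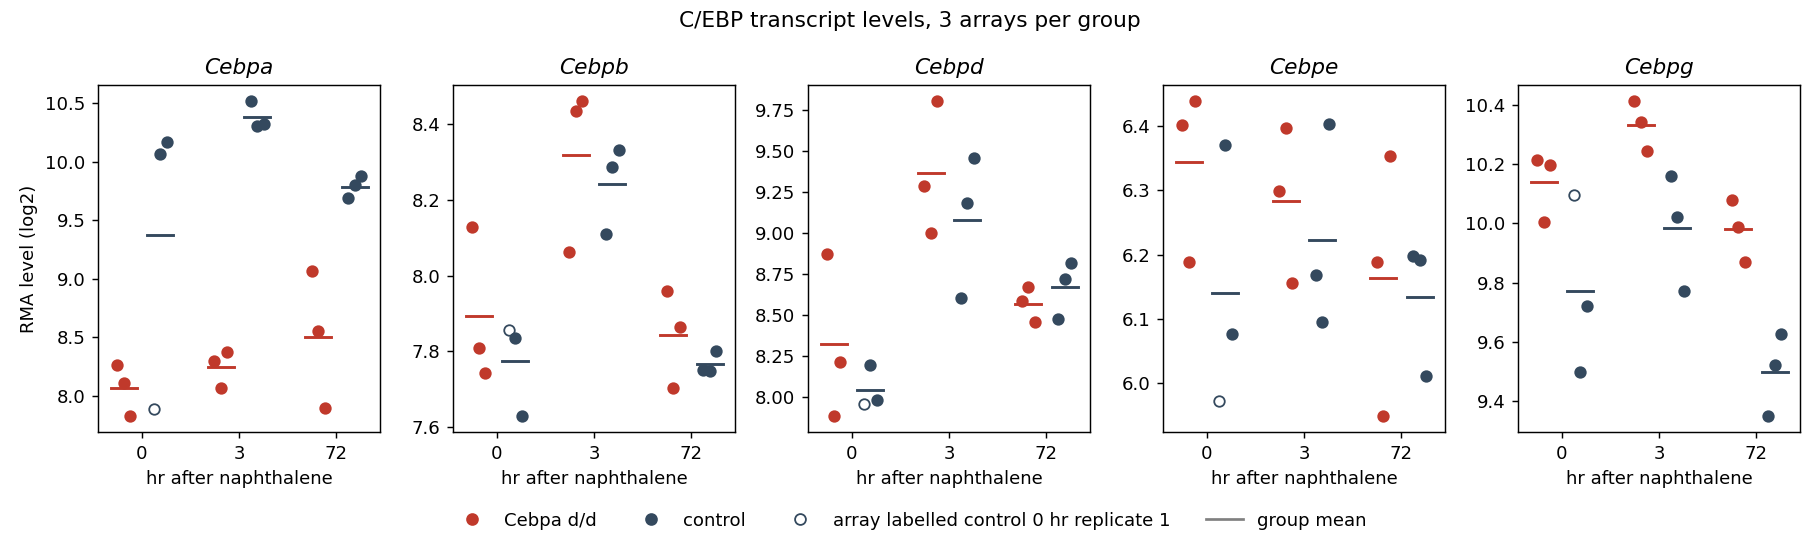
Levels of the 5 C/EBP genes on the log2 scale (y axis, a range of its own per gene) against hours after naphthalene (x axis), with 1 point per array and a line at the mean of each group of 3. Cebpa d/d points stand left of control points, and the open circle is the array labelled control 0 hr replicate 1, which has a Cebpa level of 7.89. The means of Cebpd and Cebpb were highest at 3 hr in both genotypes, and the mean of Cebpg was above control in Cebpa d/d at each time.

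Averaged over the 3 times, Cebpa was lower by a difference of -1.58 ± 0.24 (SE, 9 arrays against 9, limma adjusted p = 0.00953), which is 2.98-fold lower in Cebpa d/d. The mean level was 8.27 in Cebpa d/d and 9.85 in control. In all, 2 of the 5 C/EBP genes passed in this comparison, Cebpa as lower and Cebpg as higher, where 0.306% of all genes passed. By the size of its p, Cebpa ranked 12 of 19938. An exact permutation of the genotype labels within each time, two-sided and run for the 5 genes, gave p = 0.00075 for Cebpa, where the smallest p possible was 0.00025. With either the doubted control array, or both it and Cebpa d/d 72 hr replicate 1, left out of the fit, the mean difference was -1.82 ± 0.12 (adjusted p = 8.07e-07) or -1.92 ± 0.09 (adjusted p = 5.58e-08). The shares of all genes that passed in those fits were 1.01% and 1.14%.

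At single times the test on all arrays did not pass for any C/EBP gene. It gave 0 of 5 at 0 hr, 0 of 5 at 3 hr and 0 of 5 at 72 hr, where 0.336%, 0.015% and 0.0702% of all genes passed at those times in turn. At an unadjusted p under 0.05, Cebpa and Cebpg counted at each time, 2 of 5. For Cebpa the differences were -1.31 ± 0.42 at 0 hr (limma adjusted p = 0.309), -2.14 ± 0.42 at 3 hr (adjusted p = 0.152) and -1.28 ± 0.42 at 72 hr (adjusted p = 0.609). The spread of Cebpa within groups was 0.591 (SD) with the doubted array and 0.284 without it. Without it, Cebpa passed at all 3 times, with -2.05 ± 0.23 at 0 hr (adjusted p = 0.000696), -2.14 ± 0.20 at 3 hr (adjusted p = 0.000186) and -1.28 ± 0.20 at 72 hr (adjusted p = 0.0144). Since the array was picked by its Cebpa level, these calls are no independent support. The share of all genes that passed in that fit was 0.767% (0 hr), 0.0752% (3 hr) and 0.1% (72 hr). With both doubted arrays left out, the difference at 72 hr was -1.56 ± 0.17 (adjusted p = 0.000731), and 0.115% of all genes passed.

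By group mean, Cebpa ran from the lowest in Cebpa d/d at 0 hr (8.07 ± 0.22, SD, n = 3) through Cebpa d/d at 3 hr (8.24 ± 0.16) and 72 hr (8.51 ± 0.59) to control at 0 hr (9.38 ± 1.29), 72 hr (9.79 ± 0.09) and 3 hr (10.38 ± 0.12). The 3 Cebpa d/d groups overlapped each other, and the largest difference over time among them was 0.44 ± 0.42 between 72 and 0 hr (limma adjusted p = 0.664). In control, 3 hr minus 0 hr was 1.01 ± 0.42 (adjusted p = 0.18) with all arrays and 0.26 ± 0.23 (adjusted p = 0.627) without the doubted array. The difference of 72 hr minus 0 hr in control was 0.41 ± 0.42 with all arrays and -0.33 ± 0.23 without that array, so its sign rested on it. Between 72 and 3 hr the control groups did not overlap, as was so for 40.3% of all genes, with a difference of -0.60 ± 0.42 (adjusted p = 0.313) on all arrays and -0.60 ± 0.20 (adjusted p = 0.0488) without the doubted array, where 21.4% of all genes passed.

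**Figure D2:**
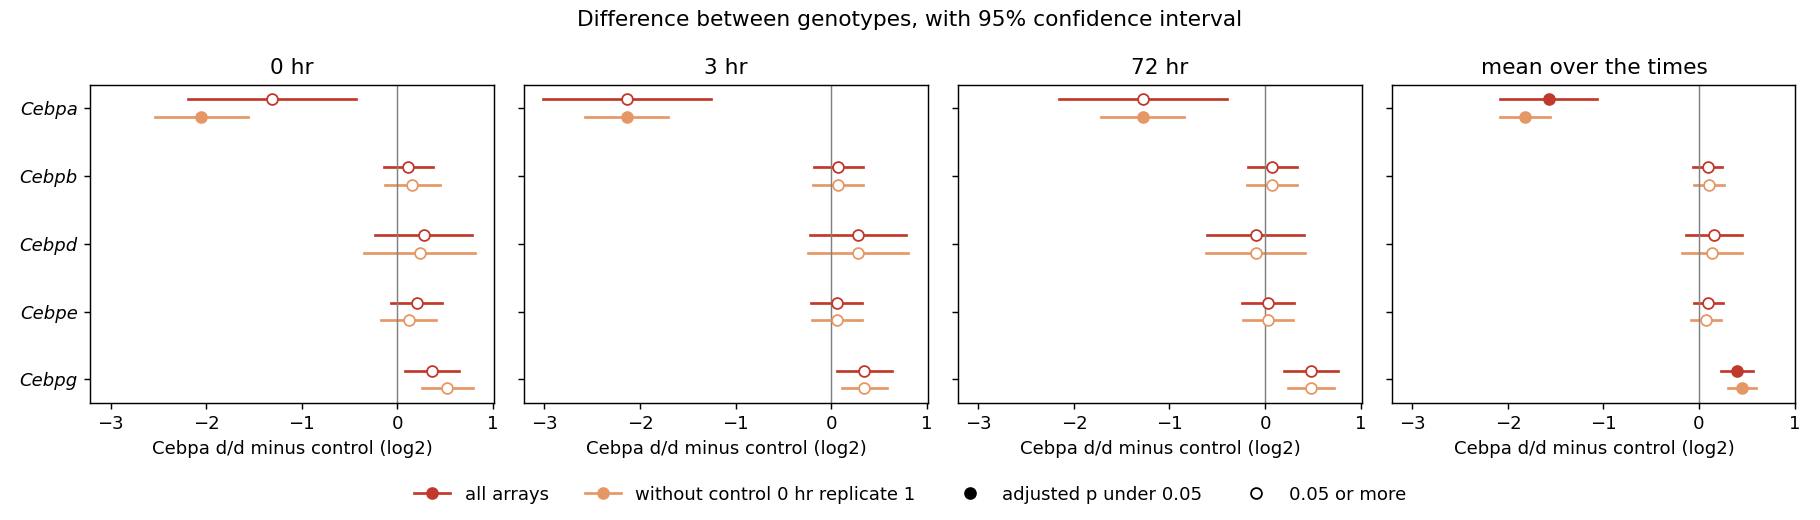
Difference of Cebpa d/d minus control (x axis, log2 scale) for each C/EBP gene at 0, 3 and 72 hr and as the mean over the times, with its 95% confidence interval. Filled points passed at an adjusted p under 0.05, and the paler points are from the fit without control 0 hr replicate 1. Cebpa lies left of 0 and Cebpg right of 0 in each panel, and the intervals of Cebpb, Cebpd and Cebpe include 0.

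Cebpg, which encodes the partner protein C/EBPγ, was higher in Cebpa d/d. At 0 hr the level of Cebpg (chromosome 7, probe set 10562416) was 10.21, 10.01 and 10.20 in Cebpa d/d arrays, against 10.09, 9.50 and 9.72 in control arrays. At 3 hr it was 10.41, 10.34 and 10.24 in Cebpa d/d, against 10.16, 10.02 and 9.77 in control. At 72 hr it was 10.08, 9.99 and 9.87 in Cebpa d/d, against 9.35, 9.52 and 9.63 in control. Every Cebpa d/d array thus lay above every control array at 3 and at 72 hr, and at 0 hr the doubted control array, at 10.09, was the only control inside the Cebpa d/d range. Over all times, though, its Cebpg level also lay inside the range of the other 8 control arrays, from 9.35 to 10.16, so Cebpg did not set that array apart. The cardiac muscle gene Myl3 stood at 7.80 on it, against at least 9.23 in Cebpa d/d at 0 hr. Lcn2 stood at 7.71, against at most 6.83 in Cebpa d/d at 0 hr. Over all times, though, that Lcn2 level lay inside the Cebpa d/d range and below the other 8 control arrays. The Lyz2 level of the array lay inside the Cebpa d/d range at 0 hr. Whether the array is a swapped sample was not tested, and it was kept under its label. The mean difference of Cebpg over the times was 0.40 ± 0.08 (limma adjusted p = 0.0385), 1.32-fold higher, with mean levels of 10.15 in Cebpa d/d and 9.75 in control. The exact permutation within times gave p = 0.00075.

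The call for Cebpg was close to the threshold. The difference was 0.37 ± 0.13 at 0 hr (adjusted p = 0.435), 0.35 ± 0.13 at 3 hr (adjusted p = 0.953) and 0.48 ± 0.13 at 72 hr (adjusted p = 0.436). Without the doubted control array the mean difference was 0.45 ± 0.07 (adjusted p = 0.00359), and without both doubted arrays 0.43 ± 0.07 (adjusted p = 0.00657). Left out one at a time, 15 of the 18 arrays took the adjusted p above 0.05, to at most 0.0993, while the difference stayed between 0.35 and 0.45. Over time, Cebpg in control was lower at 72 hr than at 3 hr, by -0.48 ± 0.13 (adjusted p = 0.0198), and the same difference in Cebpa d/d was -0.35 ± 0.13 (adjusted p = 0.126). With the Xist level as a covariate the control difference was -0.50 ± 0.16 (adjusted p = 0.0526). By group mean, the highest were Cebpa d/d at 3 hr (10.33 ± 0.09) and at 0 hr (10.14 ± 0.12). Next came control at 3 hr (9.984 ± 0.20) and Cebpa d/d at 72 hr (9.980 ± 0.11), then control at 0 hr (9.77 ± 0.30) and at 72 hr (9.50 ± 0.14). Each overlapped its neighbour in that order except Cebpa d/d at 3 hr, whose lowest array was above the highest Cebpa d/d array at 0 hr.

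Cebpg is the nearest measured gene to Cebpa on 1 side, and the other measured neighbours were examined for the same comparison. In RefSeq 2 genes lie between them, 1 of them protein-coding and neither kept among the genes measured. Of the 10 measured genes on each side of Cebpa, Cebpg alone passed for the mean over the times. The other 19 differed by between -0.12 and 0.10, and their smallest adjusted p was 0.675. At 0 hr Nudt19, the farthest of them on its side, passed as higher in Cebpa d/d (0.46 ± 0.09, limma adjusted p = 0.0449, and 0.0302 without the doubted control array or 0.031 without both), and at 3 hr its difference was -0.24 ± 0.09 (adjusted p = 0.959). Nudt19 is named because its values were seen. This set of neighbours was chosen after the values of Cebpa and Cebpg were known.

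**Figure D3:**
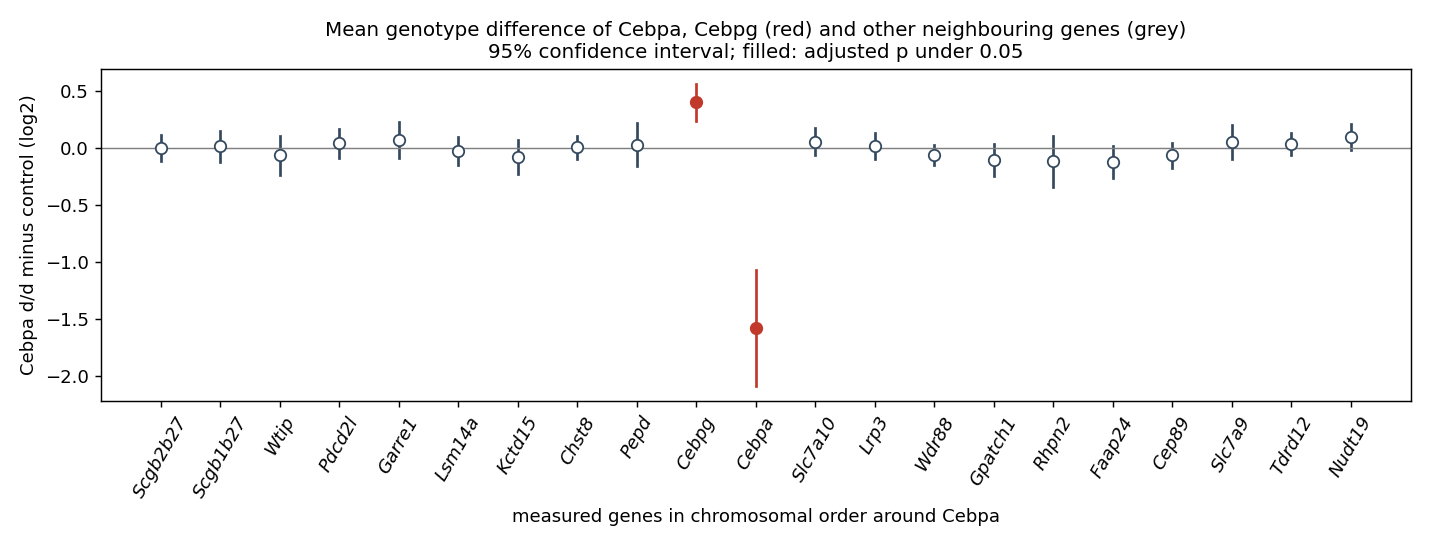
Mean difference over the times, Cebpa d/d minus control (y axis, log2 scale), for Cebpa, Cebpg and the 19 other measured neighbours in chromosomal order (x axis, not to scale), with 95% confidence intervals. Red marks Cebpa at -1.58 and Cebpg at 0.40, the filled points that passed, and the grey neighbours lie between -0.12 and 0.10.

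Cebpd, the inducible C/EBPδ gene, was higher at 3 hr than at 0 hr in both genotypes, with a difference of 1.04 in each. In Cebpa d/d its level (chromosome 16, probe set 10433885) was 9.28, 9.0 and 9.81 at 3 hr, against 8.87, 7.88 and 8.22 at 0 hr. In control it was 8.61, 9.18 and 9.46 at 3 hr, against 7.96, 8.19 and 7.98 at 0 hr. In Cebpa d/d and in control alike, the 3 hr arrays lay above all 0 hr arrays. The groups of 3 and 0 hr were apart in 22.7% of all genes in Cebpa d/d and in 20.3% in control. The difference was 1.04 ± 0.24 in Cebpa d/d (limma adjusted p = 0.0195) and 1.04 ± 0.24 in control (adjusted p = 0.0268), 2.06-fold and 2.05-fold higher. Without the doubted 0 hr control array, the control difference was 0.99 ± 0.27 (adjusted p = 0.0832) and no longer passed. With each array left out in turn, the call was lost in 4 of 18 fits in Cebpa d/d (limma adjusted p up to 0.119). In control it was also lost in 4 of 18 (up to 0.132).

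By 72 hr Cebpd stood between these levels, at 8.59, 8.67 and 8.46 in Cebpa d/d and 8.47, 8.72 and 8.81 in control. The difference of 72 hr minus 3 hr was -0.79 ± 0.24 in Cebpa d/d (limma adjusted p = 0.0503) and -0.41 ± 0.24 in control (adjusted p = 0.224), neither past the threshold. Compared with 0 hr it was 0.25 ± 0.24 in Cebpa d/d (adjusted p = 0.671) and 0.62 ± 0.24 in control (adjusted p = 0.134), where the groups did not overlap, as in 25.5% of all genes. Between genotypes Cebpd differed by 0.28 ± 0.24 at both 0 and 3 hr, and by -0.10 ± 0.24 at 72 hr. The mean difference was 0.15, with a 95% confidence interval from -0.14 to 0.45 (adjusted p = 0.847), and the permutation within times gave an exact p of 0.338. The interval leaves room for a difference of either sign.

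Cebpb, the C/EBPβ gene, was lower at 72 hr than at 3 hr in both genotypes. In Cebpa d/d its level (chromosome 2, probe set 10478890) was 8.13, 7.81 and 7.74 at 0 hr, 8.06, 8.43 and 8.46 at 3 hr and 7.96, 7.70 and 7.86 at 72 hr. In control it was 7.86, 7.83 and 7.63 at 0 hr, 8.11, 8.29 and 8.33 at 3 hr and 7.75, 7.75 and 7.80 at 72 hr. The 3 hr arrays of each genotype lay above all its 72 hr arrays, a separation shared by 28.3% of all genes in Cebpa d/d and 40.3% in control, and the 3 and 0 hr arrays overlapped in Cebpa d/d through 1 array at 0 hr. The difference of 3 hr minus 0 hr was 0.43 ± 0.12 in Cebpa d/d (limma adjusted p = 0.0591) and 0.47 ± 0.12 in control (adjusted p = 0.0449). In control it was 0.51 ± 0.14 (adjusted p = 0.0758) without the doubted array, so that call did not hold there. From 3 to 72 hr Cebpb fell in both genotypes, with differences of -0.48 ± 0.12 in Cebpa d/d (adjusted p = 0.0226) and -0.48 ± 0.12 in control (adjusted p = 0.0127), and both passed without the doubted arrays too. Left out one at a time, 4 of the 18 arrays took the Cebpa d/d call above 0.05 (limma adjusted p up to 0.116). For the control call 1 of 18 did (up to 0.054). The mean genotype difference of Cebpb was 0.09, with a 95% confidence interval from -0.06 to 0.24 (adjusted p = 0.815) and an exact permutation p of 0.194.

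**Figure D4:**
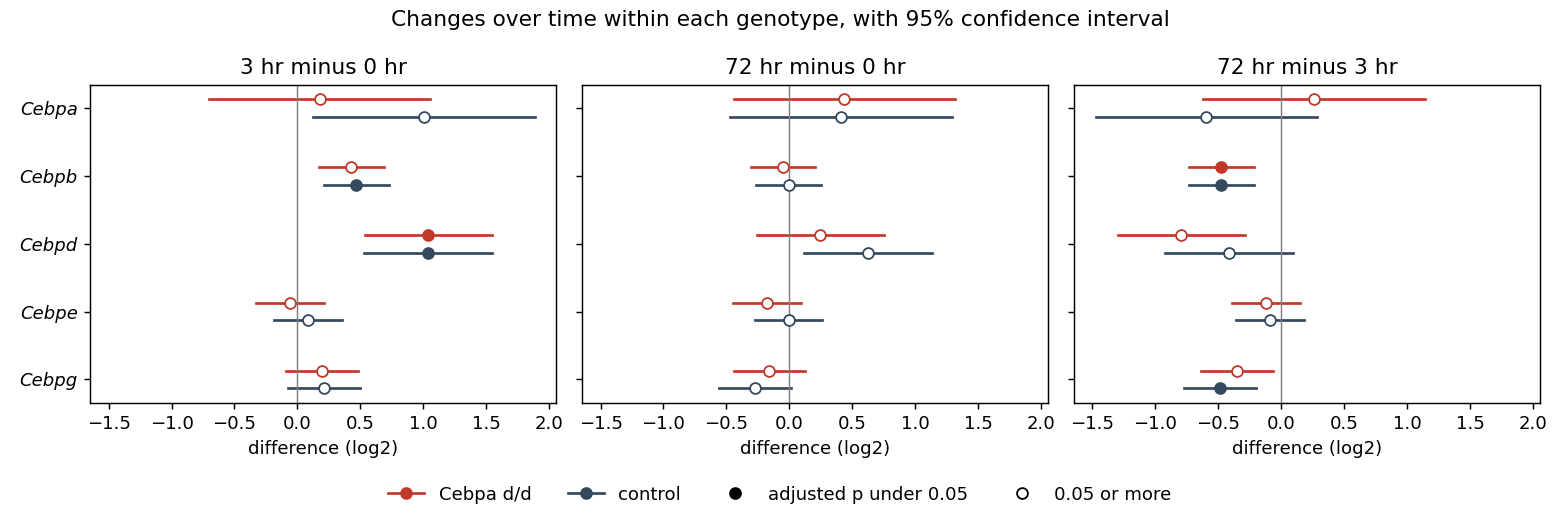
Differences over time (x axis, log2 scale) for each C/EBP gene in Cebpa d/d and in control, with 95% confidence intervals, for 3 hr minus 0 hr, 72 hr minus 0 hr and 72 hr minus 3 hr. Filled points passed at an adjusted p under 0.05. Cebpd at 3 hr lies near 1.04 in both genotypes, and Cebpb lies at -0.48 for 72 hr minus 3 hr in both.

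In counts, 1 of the 5 C/EBP genes passed between 3 and 0 hr in Cebpa d/d and 2 of 5 in control, where 4.38% and 3.5% of all genes did. Between 72 and 3 hr the counts were 1 of 5 in Cebpa d/d and 2 of 5 in control, against 8.55% and 19.7% of all genes. Between 72 and 0 hr they were 0 of 5 in Cebpa d/d and 0 of 5 in control by limma, against 4.8% and 7.15%, and Cebpd in control was the only one with an unadjusted p under 0.05. The genotypes are compared here through the interaction, which is the Cebpa d/d change over time minus the control change. For 0 to 3 hr it was 0.00 ± 0.34 for Cebpd and -0.04 ± 0.17 for Cebpb, and for 3 to 72 hr it was -0.38 ± 0.34 for Cebpd. No C/EBP gene passed in any of the 3 interactions on all arrays by limma, and 0 of 5 had an unadjusted p under 0.05. The share of all genes that passed was 0%, 0.0953% and 0.01% for 0 to 3, 0 to 72 and 3 to 72 hr. For Cebpa without the doubted array, the interaction was 0.77 ± 0.31 for 0 to 72 hr (adjusted p = 0.667) and 0.86 ± 0.29 for 3 to 72 hr (adjusted p = 0.739). All 72 hr arrays were those with Xist above Eif2s3y, and the part of this in the differences that involve 72 hr was not tested beyond the covariate fit.

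Cebpe, the granulocyte member, stayed within a range of 0.49 over all 18 arrays, from 5.95 to 6.44. At 0 hr the level of Cebpe (chromosome 14, probe set 10419850) was 6.40, 6.19 and 6.44 in Cebpa d/d and 5.97, 6.37 and 6.08 in control. At 3 hr it was 6.30, 6.40 and 6.16 in Cebpa d/d and 6.17, 6.10 and 6.40 in control, and at 72 hr 6.19, 5.95 and 6.35 in Cebpa d/d and 6.20, 6.19 and 6.01 in control. The groups overlapped in each of the 10 comparisons between genotypes or times, and none passed. The mean genotype difference was 0.10, with a 95% confidence interval from -0.06 to 0.25 (limma adjusted p = 0.798). No detection call was used, so whether Cebpe lay above background was not examined.

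The genes whose levels ran most like that of Cebpa over the 18 arrays were Gjb6 (Pearson r = 0.914, Spearman rho = 0.759), Ttpa (0.896 and 0.860), Abhd5 (0.892 and 0.783), C6 (0.853 and 0.715) and Chil1 (0.845 and 0.752). The arrays share their groups, so these values describe likeness and carry no test. Gjb6 encodes a gap junction connexin, Ttpa the α-tocopherol transfer protein, Abhd5 an activator of triglyceride breakdown, C6 a complement component and Chil1 a chitinase-like protein. The group means of Gjb6 were 6.21, 6.11 and 6.38 in Cebpa d/d at 0, 3 and 72 hr, against 7.12, 7.62 and 6.91 in control. Those of Chil1 were 7.08, 7.04 and 7.03 in Cebpa d/d, against 9.57, 9.57 and 8.29 in control. On the doubted control array Gjb6 stood at 6.26, Ttpa at 6.00, Abhd5 at 9.65, C6 at 6.96 and Chil1 at 6.99. All 5 values lay between the lowest and highest Cebpa d/d array and below the range of the other 8 control arrays. When that array was left out, Gjb6, Ttpa, Abhd5 and C6 were again among the first 5, and Acoxl took the place of Chil1. For Acoxl, chosen without it, the array stood at 6.45, between the highest Cebpa d/d array at 6.29 and the lowest other control at 6.52.

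For Cebpd the most alike genes were Mcl1 (r = 0.908, rho = 0.930), Dusp1 (0.899 and 0.905), Egr2 (0.892 and 0.886), Noct (0.890 and 0.853) and Plaur (0.889 and 0.884). For Cebpb they were Lix1 (0.931 and 0.781), Mir17hg (0.929 and 0.856), Dusp1 (0.892 and 0.713), Ern1 (0.886 and 0.738) and Nr4a1 (0.885 and 0.796). Dusp1, a phosphatase that switches off MAP kinases, stood in both lists. Egr2 and Nr4a1 are immediate early transcription factor genes, and Ern1 encodes a sensor of unfolded protein in the endoplasmic reticulum. For Cebpg they were Tmc7 (0.851 and 0.833), Erlin1 (0.833 and 0.818), Pkp4 (0.825 and 0.806), Bag5 (0.806 and 0.779) and Fbxo11 (0.798 and 0.779). Cebpe was most like Prss51 (0.890 and 0.818), Krtap19-4 (0.883 and 0.862), Syt13 (0.871 and 0.880), Armc6 (0.870 and 0.847) and Ifi44l (0.864 and 0.810), in a gene whose whole range was 0.49. Without the doubted array 4 of 5 names stayed for Cebpb, 2 for Cebpd, 5 for Cebpe and 3 for Cebpg.

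Dimer partners and regulators of C/EBP proteins were measured for 21 of 22 genes listed. At 3 hr 10 of the 21 were higher than at 0 hr in Cebpa d/d and 10 in control, and 0 were lower, where 2.66% and 1.88% of all genes were higher. The list's median difference was 0.54 in Cebpa d/d, beside -0.02 over all genes, and 0.50 in control, beside 0.03. Without the doubted array, 7 were higher in control, where 1.14% of all genes were. Atf3, a stress-induced factor that pairs with C/EBP proteins, stood in Cebpa d/d at 10.06, 10.73 and 9.71 at 3 hr, against 7.94, 6.98 and 7.14 at 0 hr (2.81 ± 0.27, adjusted p = 1.47e-05). In control Atf3 stood at 9.56, 9.80 and 9.39 at 3 hr, against 7.20, 6.52 and 7.02 at 0 hr (2.67 ± 0.27, adjusted p = 5.3e-05). Ddit3, which encodes the C/EBP homologous protein CHOP, a partner that keeps C/EBP dimers off their usual sites, rose by 1.33 ± 0.16 in Cebpa d/d (adjusted p = 8.76e-05) and by 1.33 ± 0.16 in control (adjusted p = 0.000158). Fos, an AP-1 subunit, rose by 1.67 ± 0.22 in Cebpa d/d (adjusted p = 0.00022) and by 1.12 ± 0.22 in control (adjusted p = 0.0105).

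By 72 hr the same list ran the other way. Between 72 and 3 hr 13 of 21 were lower and 0 higher in Cebpa d/d, and 12 were lower and 1 higher in control, where 3.67% and 8.57% of all genes were lower. Ddit3 differed by -1.85 ± 0.16 in Cebpa d/d (adjusted p = 2.25e-06) and -1.87 ± 0.16 in control (adjusted p = 1.73e-06). Atf3 differed by -3.12 ± 0.27 in Cebpa d/d (adjusted p = 3.01e-06) and -2.33 ± 0.27 in control (adjusted p = 4.43e-05). Between genotypes 0 of 21 passed by limma at any time or as the mean. At an unadjusted p under 0.05 there were 2 at 0 hr, 3 at 3 hr, 1 at 72 hr and 3 for the mean. The smallest unadjusted p for the mean belonged to Trib2, a pseudokinase that targets C/EBPα for breakdown (-0.14 ± 0.05, adjusted p = 0.389), and next came Ddit3 (0.24 ± 0.09, adjusted p = 0.413).

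**Figure D5:**
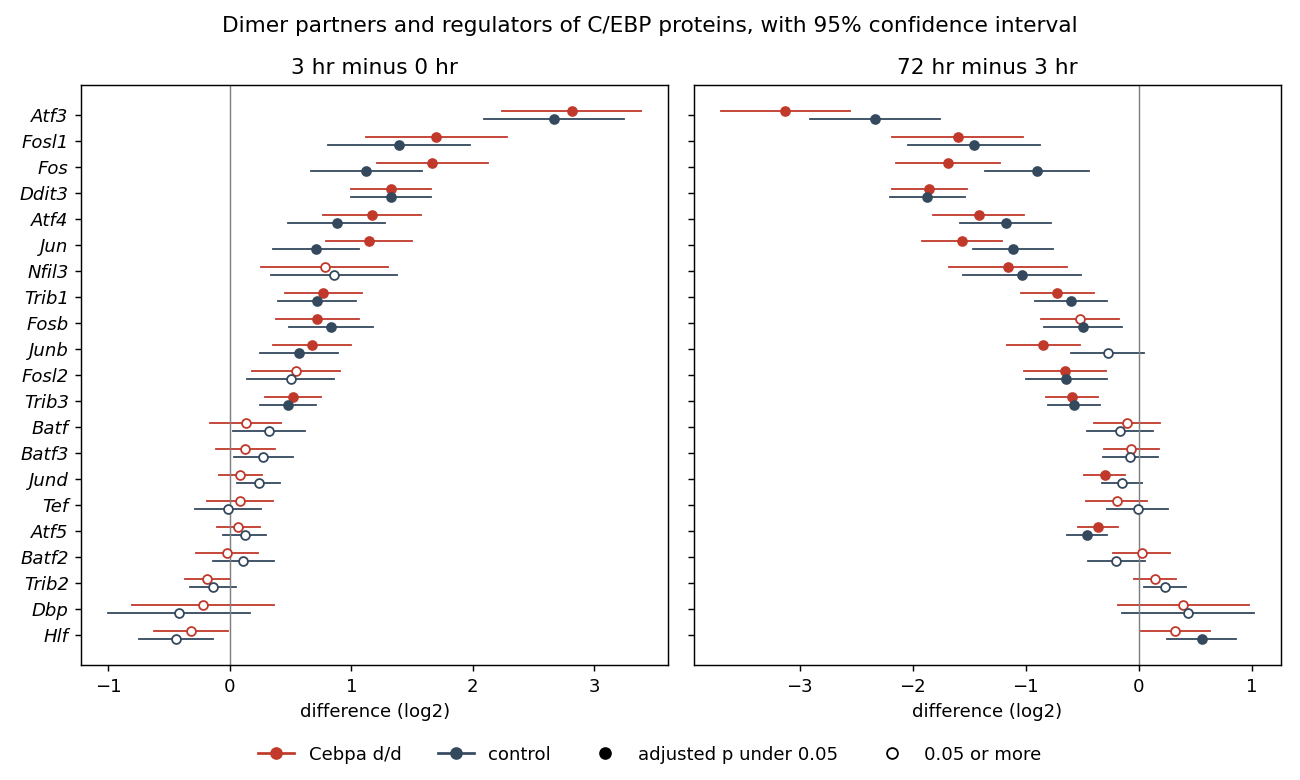
Differences over time (x axis, log2 scale) of the 21 measured dimer partners and regulators of C/EBP proteins in Cebpa d/d and in control, with 95% confidence intervals, on all arrays. Filled points passed at an adjusted p under 0.05: 10 in each genotype for 3 hr minus 0 hr, all higher, and 13 in each for 72 hr minus 3 hr, all lower apart from 1 in control. Atf3 lies farthest from 0 in both panels.

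The integrated stress response, which C/EBPγ and CHOP serve as partners of ATF4, was measured for all 18 genes listed, among them Atf3 and Ddit3 already described. At 3 hr 16 of 18 were higher in Cebpa d/d and 15 in control (12 without the doubted array), and 0 were lower, where 2.66% of all genes were higher in Cebpa d/d and 1.88% in control (1.14% without the array). The median difference was 1.11 in Cebpa d/d and 0.94 in control. Slc7a11, the cystine transporter, was the farthest from 0 hr, by 5.19 ± 0.30 in Cebpa d/d (limma adjusted p = 2.95e-08) and 5.02 ± 0.30 in control (adjusted p = 4.92e-08). Atf4 itself differed by 1.17 ± 0.19 in Cebpa d/d and 0.88 ± 0.19 in control. Between genotypes at 3 hr, 1 of 18 passed, Chac1, which degrades glutathione, where 0.015% of all genes passed. Its level was 8.82, 8.88 and 8.76 in Cebpa d/d, against 7.85, 8.31 and 7.66 in control (0.88 ± 0.13, adjusted p = 0.0326). The adjusted p of Chac1 was 0.0139 without the doubted control array and 0.0123 without both. The change of Chac1 from 0 to 3 hr was not shown to differ between genotypes (interaction 0.86 ± 0.19, adjusted p = 0.192).

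Interleukin-6, STAT3 and acute phase genes, in which C/EBPβ and C/EBPδ have known roles, were measured for 26 of 28 listed. At 3 hr 3 were higher in Cebpa d/d, where 2.66% of all genes were: Lif, a cytokine of the interleukin-6 family (1.29 ± 0.18, limma adjusted p = 0.000485), Hpx (0.65 ± 0.17, adjusted p = 0.0369) and Socs3, a STAT3 feedback inhibitor (0.96 ± 0.25, adjusted p = 0.0411). In control Pim1 and Lif were higher and Lifr was lower at 3 hr, and 0 of the 26 passed without the doubted array, by limma (12 at an unadjusted p under 0.05), with 1.55% of all genes passing in that fit. The 1.55% belongs to the adjusted p, so it is no measure for the 12. Over the mean of the times, 1 of 26 was lower in Cebpa d/d, Lcn2, which encodes the iron-binding protein lipocalin 2 (-1.81 ± 0.26, adjusted p = 0.00541), where 0.171% of all genes were lower. Without the doubted control array it was -1.88 ± 0.27 (adjusted p = 0.00307), and without both doubted arrays -1.78 ± 0.27 (adjusted p = 0.00469). At 0 hr its level was 5.92, 6.83 and 6.83 in Cebpa d/d, against 7.71, 8.84 and 7.78 in control. At 3 hr it was 7.13, 6.51 and 7.70 in Cebpa d/d, against 7.78, 8.65 and 8.98 in control, and at 72 hr 6.22, 7.74 and 6.48 in Cebpa d/d, against 8.82, 9.04 and 10.03 in control. The genotypes did not overlap at any of the 3 times for Lcn2. At single times that was so for 11.4% (0 hr), 9.79% (3 hr) and 15.1% (72 hr) of all genes. The share of genes apart at all 3 times was not worked out. At 72 hr 1 of 26 was lower, the acute phase gene Orm2 (-1.94 ± 0.27, adjusted p = 0.00412), where 0.0602% of all genes were lower. Without the doubted control array the adjusted p for Orm2 was 0.00576, and without both doubted arrays the difference was -2.07 ± 0.31 (adjusted p = 0.0108).

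Granulocyte genes, the targets for which C/EBPε and C/EBPα are known in bone marrow, were all measured. Of the 19, 1 passed between genotypes as the mean over the times, again Lcn2, where 0.306% of all genes passed, and the list's median difference was -0.04, beside 0.01 over all genes. Neutrophil marker levels are given beside this list. The mean of their 8 genes lay between 6.27 and 7.16 in Cebpa d/d arrays at 72 hr and between 7.15 and 7.94 in control arrays, and 0 of the 8 passed by limma (2 at an unadjusted p under 0.05). Their receptor gene Csf3r lay between 6.01 and 6.82 over all arrays. The part of these markers in the differences of Lcn2 and Orm2 was not tested.

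Lung epithelial genes linked to C/EBPα were measured for all 17 listed. Over the mean of the times 2 were lower in Cebpa d/d and 0 higher, where 0.171% and 0.135% of all genes were. Lyz2, the lysozyme of alveolar type 2 cells and macrophages, differed by -1.29 ± 0.19 (limma adjusted p = 0.00541), and at 3 hr stood at 9.59, 9.72 and 9.86 in Cebpa d/d, against 11.38, 11.56 and 11.29 in control. At 0 hr Lyz2 stood at 10.13, 11.04 and 10.05 in Cebpa d/d, against 10.21, 11.62 and 11.79 in control, and the 10.21 was the doubted array. Without it the mean difference of Lyz2 was -1.46 ± 0.13 (adjusted p = 2.14e-05), and without both doubted arrays -1.41 ± 0.13 (adjusted p = 3.87e-05). Abca3, the lipid transporter of lamellar bodies, differed by -0.37 ± 0.06 (adjusted p = 0.00999), and at 72 hr stood at 8.14, 8.19 and 8.17 in Cebpa d/d, against 8.51, 8.64 and 8.72 in control. The mean difference of Abca3 was -0.38 ± 0.06 (adjusted p = 0.00604) without the doubted control array and -0.37 ± 0.06 (adjusted p = 0.0105) without both. Sftpd, surfactant protein D, differed by -0.29 ± 0.06 (adjusted p = 0.059), and Scd1, a fatty acid desaturase, by 0.50 ± 0.14 (adjusted p = 0.171). Without the doubted control array 3 were lower and 1 higher, where the share of all genes that passed in either direction rose from 0.306% to 1.01%. The mean of 10 macrophage markers lay between 6.72 and 7.26 on Cebpa d/d arrays and between 6.61 and 7.46 on control arrays. Of the 10, 0 passed for the mean difference between genotypes by limma, with 2 at an unadjusted p under 0.05. Without the doubted control array 1 of the 10 was lower, where 1.01% of all genes passed in either direction. The median difference of the 17 lung epithelial genes was -0.003, beside 0.01 over all genes. Pparg, a nuclear receptor gene that C/EBP proteins activate in adipocytes, passed at 3 hr as higher than at 0 hr in both genotypes, by 1.08 ± 0.14 in Cebpa d/d (adjusted p = 0.00027) and 1.02 ± 0.14 in control (adjusted p = 0.00108).

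Adipocytes also express Cebpa, and their markers are given here for 0 hr. The mean of 7 adipocyte markers lay between 6.61 and 7.39 in Cebpa d/d arrays at 0 hr and between 6.20 and 6.54 in control arrays. Of the 7, 1 passed as higher, a gene other than Adipoq, where 0.336% of all genes passed in either direction. Adipoq, the adipocyte hormone adiponectin, stood at 7.92, 7.29 and 5.53 in Cebpa d/d and at 6.15, 5.37 and 4.90 in control, so the groups overlapped. They also overlapped at 0 hr for the adipocyte genes Lep, Cidec and Plin1. Lep lay between 4.80 and 5.06 in Cebpa d/d and between 4.99 and 5.09 in control. Cidec lay between 6.03 and 6.29 in Cebpa d/d and between 6.06 and 6.16 in control. Plin1 lay between 7.09 and 7.35 in Cebpa d/d and between 6.79 and 7.32 in control. In the same 0 hr Cebpa d/d arrays Cebpa stood at 8.27, 8.11 and 7.83. The part of fat in the 0 hr levels of the C/EBP genes was not tested.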

How the data were processed

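Total RNA labelled as terminal bronchiolar epithelial cells was hybridised to 18 Affymetrix arrays. The authors deposited 1 table of log2 values, and RMA is the tool named, per the submitters' processing notes. The RMA version, the genome build and filters are not given in the sources used here, and no scanner files were used, so background was not examined. The number of arrays limits the precision. Of 35557 probe sets, 21789 carried 1 symbol, 1621 several and 12147 none. Where a gene had several single-symbol probe sets, the one with the highest mean was kept, which left 19938 genes.

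A model of 6 group means was fitted to all 18 arrays with limma 3.58.1 in R 4.3.3, with 12 residual and 4.49 prior degrees of freedom. It gave 13 contrasts: 4 between genotypes, 6 over time and 3 interactions. The Benjamini-Hochberg adjustment ran over all genes of a contrast, with a threshold of 0.05. No text states a design, so no replicate block was used. The named genes are the 5 members, the 5 genes with the highest Pearson correlation with each, and up to 4 genes with the smallest p from each list in a comparison described. Members, lists, tests and the motifs searched were chosen with earlier results of these data known, so lists are described by counts and medians. Promoter windows come from RefSeq (GRCm38.p6) and were searched with Python 3.11.15. On simulated data with 200 changed genes among 19938, the mean genotype contrast recovered 85.5% of changes of 0.5 and 99.5% of changes of 1, and 3 hr minus 0 hr in control recovered 34.5% and 92.5%. Alternatives covered the probe set rule, low genes, scaling, array weights, variance model, samples in the fit, the Xist level, the replicate number and each array left out.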

Additional observations from a re-analysis of the deposited data

Results flagged for a closer look

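The acute phase gene Orm2 passed, on all arrays only, for a different change between 0 and 72 hr in the 2 genotypes. Its interaction, the Cebpa d/d change minus the control change, was -2.26 ± 0.38 on the log2 scale (limma adjusted p = 0.0273). Orm2 differed by -0.31 ± 0.27 between 72 and 0 hr in Cebpa d/d and by 1.95 ± 0.27 in control. Its levels at 72 hr were 6.89, 6.63 and 6.40 in Cebpa d/d, against 8.74, 8.84 and 8.18 in control. Without control 0 hr replicate 1 in the fit the interaction was -2.30 ± 0.41 (limma adjusted p = 0.0593). In that fit 0 of the 26 measured genes of its list passed in this interaction by limma, and 4 had an unadjusted p under 0.05. Without both doubted arrays the interaction of Orm2 was -2.42 ± 0.43 (limma adjusted p = 0.134), so the call did not hold in either fit.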

How the results depend on the processing

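Values are numbers of C/EBP genes that passed, beside those of the report. With array weights 1 passed at 0, 3 and 72 hr between genotypes and between 72 and 0 hr in control (each 0 in the report), and 3 between 72 and 3 hr in Cebpa d/d (1 in the report). With the fit limited to the groups compared, 1 passed between genotypes at 3 hr and between 72 and 0 hr in control, and 0 between 3 and 0 hr in either genotype. That fit and the one without both doubted arrays each gave 3 between 72 and 3 hr in control (2 in the report), Cebpa being the added gene (-0.60, limma adjusted p = 0.00938 and 0.012). With both doubted arrays left out (the first replicates of Cebpa d/d at 72 hr and of control at 0 hr), 1 passed at each single time between genotypes and 0 between 3 and 0 hr in control. For the mean genotype difference, 1 passed with median centring (Cebpg 0.39, adjusted p = 0.0503) and 1 with the Xist covariate, which also left 1 between 3 and 0 hr and 1 between 72 and 3 hr in control. Median centring, and leaving out genes below the median level, which removes Cebpe, each gave 2 in Cebpa d/d both between 3 and 0 hr and between 72 and 3 hr. The mean of probe sets and a repeat quantile normalization each gave 2 for 72 hr minus 3 hr in Cebpa d/d, and trend with robust variance gave 1 for 3 hr minus 0 hr in control. The replicate block also gave 1 there (Cebpb 0.47, adjusted p = 0.0704) and changed no other count. Same-numbered arrays deviated together in 3 of 27 pairs (correlations from -0.288 to 0.199, 3 over 0.1), so pairing by number was not shown. Those 3 pairs joined the genotypes at the same time, at 0.153 (0 hr), 0.199 and 0.112 (both 72 hr). Pairing within a time was not tested further. Leaving out single arrays gave 0 to 1 at each time between genotypes, 1 to 2 for the mean, 0 to 2 for 3 hr minus 0 hr in either genotype and for 72 hr minus 3 hr in Cebpa d/d, and 1 to 3 for 72 hr minus 3 hr in control. The difference of Cebpa between 72 and 0 hr in control (0.41) reversed to -0.082 with array weights and to -0.33 without control 0 hr replicate 1 or without both arrays (-0.33 to 0.81 with single arrays left out), and the Cebpg interaction from 0 to 72 hr reversed to -0.098 without both; none of these passed. Of 1852 gene values over the alternatives, 1762 were counted as unchanged. Among these, 64 did change sign, by under 1 SE and with no call in either fit. Of the rest, 31 gained a call, 55 lost one and 4 reversed sign by more. Causes were not tested apart from the fits named. In the 1 single contrast simulated, 3 hr minus 0 hr in control, 34.5% of changes of 0.5 were recovered. A missing call there thus does not show that such a change is absent. The recovery does not bear on the call of Cebpb, which was lost without the doubted control array.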
